A study of Mus musculus with 4 samples.

Results

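Axon guidance genes were followed across 4 RNA-seq libraries of mouse primary cortical neurons. They encode the semaphorins of classes 3 to 7, plexins, neuropilins, ephrins, Eph receptors, Slits, Robos, netrins, Dcc and the Unc5 receptors. Members were chosen by gene symbol: 73 of the 22552 rows of the table matched, and the 65 that reached 1 FPKM in any library were kept, of 13248 genes kept in all. FPKM is a fragment count scaled to transcript length and library size. The 8 symbols that did not reach it were Efna1, Epha1, Ntn5, Robo3, Robo4, Sema3b, Sema3g and Unc5cl. The closest of these was Sema3b, with its highest value at 0.840 FPKM, and the closest member inside was Sema3e, with its highest at 1.22 FPKM. Robo4 was listed at 0 in 2 libraries (wild type basal and cKO KCl), Unc5cl in 2 (wild type KCl and cKO basal) and Epha1 in 1 (cKO basal). Unc50 met the rule by its letters alone. It encodes a Golgi protein and not a netrin receptor, and it is counted among the 65. It stood at 21.6 FPKM (wild type basal), 25.2 (wild type KCl) and 23.3 in both cKO libraries.

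The cells were cortical neurons taken from mouse embryos at E16.5. They were either wild type or carried floxed Brg1 alleles with BAF53bCre (Brg1-cko, here cKO), a Cre recombinase named for a BAF subunit gene that is expressed in neurons, so that deletion is directed to neurons and not to other cells of the culture. Brg1, gene symbol Smarca4, is an ATPase of the BAF chromatin remodelling complex. The labels give all 4 samples the same protocol, in which TTX (1 µM) and APV (100 µM) were given on day 5 in vitro to block spontaneous activity before depolarization on day 6; whether the basal cultures also received them is not said outright. Depolarized cultures had 50 mM KCl for 6 h, and the others stayed at the basal level. Each of the 4 groups, named below by genotype and then basal or KCl, had 1 library. No difference can therefore be set against a spread between cultures, no p-value is given, and "higher" and "lower" describe these libraries alone.

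Axon guidance cues steer growing axons by attraction or repulsion, and many of the same molecules later act at synapses and on dendrites. Secreted class 3 semaphorins signal through neuropilins paired with plexins, while most membrane-bound semaphorins bind plexins directly. Ephrins are membrane-bound ligands of the Eph receptor tyrosine kinases, and signal in both directions at cell contacts. Slits repel axons through Robo receptors, and netrins attract through Dcc or repel when Unc5 receptors take part.

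Promoter sequences are shown for the 3 members that were at least 2-fold higher after KCl in a genotype (Epha2, Efnb2 and Unc5b) and for the member that was at least 2-fold lower in the cKO in both conditions (Plxnb3). Each is the 250 bases before the RefSeq start site on GRCm38.p6, 5′ to 3′ on the gene's strand, and capitals mark a match to 1 of the 3 motifs searched on both strands. The windows are chr4:141300971-141301220 on the plus strand (Epha2), chr8:8661243-8661492 on the minus strand (Efnb2), chr10:60831582-60831831 on the minus strand (Unc5b) and chrX:73756853-73757102 on the plus strand (Plxnb3).
Epha2: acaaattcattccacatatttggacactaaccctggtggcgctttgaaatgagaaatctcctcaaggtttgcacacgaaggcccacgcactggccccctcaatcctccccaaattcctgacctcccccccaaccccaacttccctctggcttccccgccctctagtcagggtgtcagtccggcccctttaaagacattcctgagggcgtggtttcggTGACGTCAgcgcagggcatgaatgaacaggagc
Efnb2: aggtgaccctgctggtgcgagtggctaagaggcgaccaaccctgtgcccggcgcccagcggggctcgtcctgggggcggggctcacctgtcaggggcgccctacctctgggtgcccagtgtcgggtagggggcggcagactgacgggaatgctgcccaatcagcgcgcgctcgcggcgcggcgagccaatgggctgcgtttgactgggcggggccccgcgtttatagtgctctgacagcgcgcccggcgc
Unc5b: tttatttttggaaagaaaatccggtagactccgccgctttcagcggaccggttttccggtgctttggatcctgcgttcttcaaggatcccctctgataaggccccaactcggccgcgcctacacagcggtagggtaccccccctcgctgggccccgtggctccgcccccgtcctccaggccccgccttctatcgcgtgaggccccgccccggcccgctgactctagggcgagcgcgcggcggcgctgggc
Plxnb3: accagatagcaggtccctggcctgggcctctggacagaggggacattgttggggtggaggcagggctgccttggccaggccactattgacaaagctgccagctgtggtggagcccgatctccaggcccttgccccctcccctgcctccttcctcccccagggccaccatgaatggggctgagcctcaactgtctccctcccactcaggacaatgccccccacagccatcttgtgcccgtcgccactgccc

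Motifs bound by activity-regulated factors were searched in these windows: the cyclic AMP response element (CRE, TGACGTCA), the AP-1 site (TGANTCA, a pattern that cannot overlap a CRE) and the CArG box of SRF. Among the kept members 56 matched the table, with 71 windows. A CRE was found in 1 member window (1.41%), that of Epha2 at positions −33 to −26 from the start site, and in 1.55% of all 32851 windows. AP-1 sites were found in windows of Sema4c, Sema4d and Sema6b (4.23% of member windows, 6.75% of all windows). CArG boxes were found in those of Robo1 and Sema4d (2.82% of member windows, 1.47% of all). The Efnb2, Unc5b and Plxnb3 windows held none of the 3 motifs. They had GC contents of 72.0%, 66.8% and 65.2%, against 55.6% for Epha2, and held 27, 27 and 3 CG dinucleotides, against 9. A match describes the letters in this window and does not show a site in use.

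The libraries were similar in depth, at about 21100000 to 23000000 fragments as approximated from the smallest steps in the values, so that 1 FPKM on a transcript of 2 kb is about 42.2 to 46.0 fragments. Smarca4 was 34.0 and 28.5 FPKM in the wild-type libraries (basal, KCl) and 10.5 and 10.4 in the cKO libraries. All 15 excitatory neuron markers and all 14 interneuron markers reached 1 FPKM in at least 1 library, and so did all 13 astrocyte, all 9 oligodendrocyte lineage and all 12 microglial markers, so that glial as well as neuronal RNA was measured. Genotype and sex cannot be told apart: the X-inactivation RNA Xist was at 83.3 and 78.1 FPKM in wild type, with cKO values of 0.14 and 0.29. The X-linked members were Efnb1, Plxna3 and Plxnb3. In bulk RNA, fewer cells of a type and less RNA per cell cannot be told apart.

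Guidance genes were expressed at ordinary levels and took a small share of the total. Their median was 11.5 FPKM in wild type basal, 9.78 in wild type KCl, 11.7 in cKO basal and 11.3 in cKO KCl, where the medians of all kept genes were 10.3, 9.90, 10.4 and 10.2. Their summed FPKM was 1133, 1095, 1157 and 1050.4 in the same order, or 0.369%, 0.331%, 0.383% and 0.318% of all FPKM. The sum was lower in the KCl library of each genotype, and receptors were lower with KCl in each, while ligands were lower in the cKO alone. The 33 ligands summed to 528, 536, 522 and 482 FPKM and the 31 receptors to 583, 534, 612 and 545. By the mean of the libraries, Efnb2 (77.0 FPKM), Efnb3 (65.6), Plxna1 (59.1), Epha4 (58.5) and Sema7a (48.8) were the 5 members with the highest levels, and Sema3e (1.06), Epha8 (1.32) and Slit3 (1.58) the 3 with the lowest.

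The KCl comparison within wild type asks which guidance genes follow depolarization. Epha2 and Efnb2 were at least 2-fold higher, where 5.07% of all kept genes were, and no member was at least 2-fold lower, where 3.31% of all were. This count uses the log2 ratio after 1 is added to both FPKM values, which understates the change of low genes. Of the 65 members, 46 lay within 0.5 of 0 on the log2 scale (70.8%, against 68.2% of all kept genes), and the median log2 ratio was −0.02, against −0.01 for all. The share past 2-fold was thus no larger among guidance genes than among all genes.

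Within the cKO, Epha2 and Unc5b were at least 2-fold higher after KCl (4.41% of all kept genes were) and Epha3 at least 2-fold lower (3.09% of all). Again 46 members lay within 0.5 of 0 (70.8%, against 71.3% of all), and the median log2 ratio was −0.10, against 0.01. The response had the same sign in both genotypes for 55 of 65 members (84.6%), close to the 84.9% of all kept genes. Across the 65 members Pearson's r between the responses was 0.86 and Spearman's coefficient 0.84 (0.85 and 0.87 over all kept genes), as a description: members are not independent and each response rests on 2 libraries. These responses share no library. The counts moved with the scaling. With rescaling to ribosomal protein genes the median of all genes became −0.36 (wild type) and −0.40 (cKO), and the members past 2-fold became 1 higher (2.87% of all kept genes were) and 8 lower (12.3%, against 10.1% of all) in wild type. In the cKO they became 2 higher (2.2% of all) and 13 lower (20.0%, against 10.2% of all). With rescaling to presynaptic genes the medians of all genes moved to 0.28 and 0.28, and the counts became 2 higher (9.03% of all) and 0 lower (1.4% of all) in wild type and 3 higher (7.76% of all) and 0 lower (1.56% of all) in the cKO. Among all kept genes past 2-fold the share that was higher was 60.5% and 58.8% as deposited, 22.1% and 17.8% with the ribosomal scaling and 86.6% and 83.2% with the presynaptic one. Directions of genes, medians and sums nearer 0 than these shifts can change sign with the scaling. The semaphorin medians became 0.03 and 0.09 with the presynaptic scaling, and the plexin medians lay at −0.39 and −0.43 with the ribosomal and 0.31 and 0.31 with the presynaptic one. The medians of EphB (0.07), EphA (0.12), ephrin-A (0.08) and Slit (0.04) changed sign in wild type alone, with the presynaptic scaling. That of Dcc and Unc5 did in the cKO alone (−0.15, ribosomal). With the ribosomal scaling those of neuropilins (−0.06 and −0.04) and netrins (−0.18 and −0.29) fell below 0 in both genotypes. The ephrin-B median changed sign in wild type with the ribosomal scaling (−0.28) and in the cKO with the presynaptic one (0.17). The Robo median stayed below 0.

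**Figure D1:**
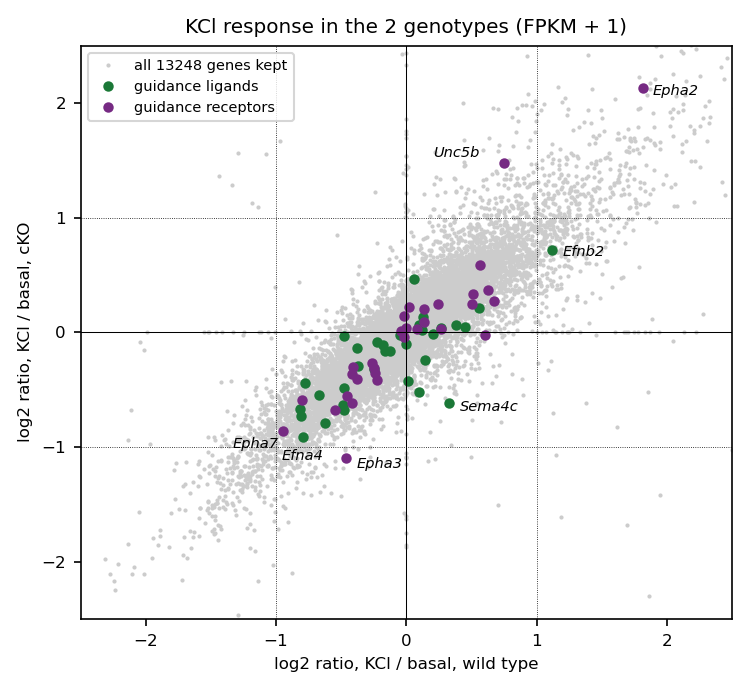
Log2 ratio of KCl to basal (FPKM + 1) in wild type (x axis) against the cKO (y axis) for each guidance ligand (green) and receptor (purple), over all 13248 genes kept (grey, those beyond 2.5 in size not drawn). Dotted lines mark 2-fold. Epha2 lies past 2-fold on both axes, Efnb2 on the wild-type axis and Unc5b and Epha3 on the cKO axis.

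Among the ligands, Efnb2, a transmembrane ephrin of EphB receptors and EphA4 with roles in vessels and at synapses, stood at 50.8 FPKM in wild type basal and 112 in wild type KCl, and at 54.7 and 90.8 in the cKO (basal, KCl). Both KCl libraries were above both basal libraries. It was 2.20-fold higher with KCl in wild type (95% counting interval 2.13 to 2.27) and 1.66-fold higher in the cKO (1.61 to 1.71). These intervals cover counting error at the approximated depth only, and not differences between cultures. In wild type its log2 ratio of 1.12 fell under 2-fold with rescaling to ribosomal protein genes. The other ephrin-B genes did not share this pattern. Efnb1 was at 14.5, 15.6, 14.0 and 9.46 FPKM, listed with wild type first and basal before KCl as below, and the cKO KCl library was the lowest of the 4. Efnb3 was at 75.8, 58.0, 67.5 and 61.3 FPKM, with both KCl libraries below both basal libraries.

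The GPI-anchored ephrin-A genes, ligands mainly of EphA receptors, had log2 KCl ratios of −0.79 to 0.14 in wild type and −0.92 to −0.24 in the cKO, with 4 members kept. Efna4 was lowest on both, at 5.28, 2.62, 6.13 and 2.78 FPKM. This was 2.01-fold lower with KCl in wild type (counting interval 1.55 to 2.61) and 2.21-fold lower in the cKO (1.74 to 2.83), although its log2 ratio after adding 1 stayed under 2-fold. Efna3, the ephrin-A gene with the highest mean, was at 26.1, 26.4, 24.4 and 17.9 FPKM. As with Efnb1, its cKO KCl library was below the other 3.

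As deposited, 0 of the 18 semaphorin genes kept passed 2-fold in either genotype, with medians of −0.20 (wild type) and −0.14 (cKO). Of all kept genes 5.07% were higher and 3.31% lower in wild type, and 4.41% and 3.09% in the cKO. With the ribosomal scaling the semaphorin medians became −0.57 and −0.59. Sema3a, Sema4b and Sema6c were then at least 2-fold lower in both genotypes. So were Sema4f and Sema6b in wild type, and Sema4c and Sema5a in the cKO. Among the secreted class 3 genes, Sema3a, the classical repellent of cortical axons, was at 6.14, 3.08, 5.34 and 2.81 FPKM, 1.99-fold lower with KCl in wild type (counting interval 1.76 to 2.26) and 1.90-fold lower in the cKO (1.67 to 2.16). Sema3c, with the highest class 3 mean, was at 12.9, 9.78, 14.1 and 11.3 FPKM. Sema3d was the 1 class 3 gene above 0 in both responses, at 2.98, 4.85, 2.32 and 2.85 FPKM. The 13 membrane-bound semaphorins had log2 ratios of −0.82 (Sema4b) to 0.45 (Sema6a) in wild type. Sema4b was at 9.05, 4.70, 9.32 and 5.48 FPKM and Sema6c at 30.2, 19.2, 29.2 and 16.4, in both cases with both KCl libraries below both basal ones. Sema7a, a GPI-anchored semaphorin that binds integrins and Plxnc1, had the highest mean of the group, at 53.5, 47.6, 49.8 and 44.4 FPKM, and its 4 libraries lay close together.

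No Slit or netrin passed 2-fold with KCl. Slit2 was at 4.27, 2.78, 4.91 and 3.22 FPKM, 1.53-fold lower with KCl in each genotype (counting intervals 1.38 to 1.71 and 1.39 to 1.68). Slit1 was at 7.67, 6.29, 7.61 and 5.92 FPKM, and the 3 Slit genes had log2 KCl ratios of −0.48 to 0.27 in wild type and −0.49 to 0.03 in the cKO. The 5 netrin and netrin-G genes lay within −0.12 to 0.38 in wild type and −0.17 to 0.46 in the cKO. The upper end in the cKO was Ntn4, a netrin of basement membranes, at 3.91, 4.12, 4.33 and 6.35 FPKM. Ntng2, a netrin-G that is membrane-anchored and binds the adhesion protein NGL-2 and not Dcc, was at 28.4, 33.0, 39.2 and 38.8 FPKM. In GENCODE M21 an exon of Ntng2 overlaps one of 6530402F18Rik on the same strand by 461 bases. That gene was at 9.54, 12.2, 13.5 and 16.1 FPKM, so their reads may not be fully separated. The same holds for Ntn3, the lower end of the netrins in both genotypes. An exon of Ntn3 overlaps one of Tbc1d24 on the same strand by 89 bases. Tbc1d24 was at 31.4, 25.3, 29.5 and 24.5 FPKM.

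Among the receptors, Epha2, an EphA kinase of epithelia and injured tissue, showed the largest KCl ratios of the members. It was at 0.103, 2.88, 0.183 and 4.16 FPKM and was kept only through its KCl libraries. These values correspond to about 9 fragments in wild type basal and 375 in cKO KCl. It was 27.9-fold higher with KCl in wild type (counting interval 13.7 to 58.4) and 22.8-fold higher in the cKO (13.9 to 42.0). Its promoter window is the one with a CRE, shown above, and whether that match has a part in these values was not tested.

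Of the other EphA genes, Epha6 and Epha10 were higher with KCl in wild type and 5 were below 0. Epha7, a receptor of ephrin-A that limits cortical dendrites, was at 19.4, 9.55, 22.2 and 11.7 FPKM, 2.03-fold lower with KCl in wild type (counting interval 1.90 to 2.16) and 1.89-fold lower in the cKO (1.78 to 2.0). Epha3 was at 15.3, 10.8, 20.3 and 8.99 FPKM, 1.42-fold lower in wild type (1.32 to 1.52) and 2.26-fold lower in the cKO (2.10 to 2.42). Both genes had both KCl libraries below both basal ones. Epha4, a receptor of both ephrin classes and the EphA gene with the highest mean, was at 65.8, 65.7, 50.5 and 52.0 FPKM, level with KCl in each genotype. Over the 8 EphA genes the log2 ratios thus ran from −0.95 to 1.81 in wild type and −1.09 to 2.13 in the cKO, the widest span of any family here. The 5 EphB genes ran from −0.41 to 0.51 and −0.41 to 0.33, with Ephb6, a kinase-inactive member, at 29.1, 21.6, 28.7 and 22.1 FPKM. As deposited, the ephrin-B sum was higher with KCl in each genotype (141, 185, 136 and 162 FPKM) while the EphB sum was lower (69.4, 56.6, 69.0 and 54.2 FPKM).

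Unc5b, a netrin receptor also found on vessels and macrophages, was at 1.47, 3.15, 1.67 and 6.39 FPKM. Its KCl libraries were above its basal ones, and the cKO KCl library was the highest of the 4. It was 2.15-fold higher with KCl in wild type (counting interval 1.80 to 2.57), which counts as 2-fold with 0.1 added in place of 1, and 3.84-fold higher in the cKO (3.30 to 4.49). Unc5c, Unc5a and Dcc were also above 0 in both responses, and Unc5d below 0 in both. Unc5c was at 8.63, 14.3, 7.75 and 9.59 FPKM, Unc5a at 11.5, 12.8, 10.7 and 11.5, Dcc at 4.74, 7.13, 4.48 and 5.52 and Unc5d at 5.02, 3.13, 5.08 and 2.80. The netrin receptors had the highest family median in wild type, at 0.50.

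As deposited, plexins, the signalling receptors of semaphorins, were the steadiest of the large families. In each genotype 8 of 9 lay within 0.5 of 0 on the log2 scale, against 68.2% (wild type) and 71.3% (cKO) of all kept genes. The plexin medians moved away from 0 with the ribosomal and presynaptic scalings, as given above. Plxna1 was at 58.7, 58.0, 60.6 and 59.0 FPKM and Plxna3 at 22.0, 21.4, 21.5 and 21.6. The exception was Plxna2, at 38.5, 21.7, 43.6 and 28.6 FPKM, 1.77-fold lower with KCl in wild type (counting interval 1.71 to 1.84) and 1.52-fold lower in the cKO (1.48 to 1.57). The Slit receptors were also lower with KCl in both genotypes, Robo1 at 19.5, 14.4, 22.5 and 18.0 FPKM and Robo2 at 32.6, 23.5, 25.3 and 16.9.

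**Figure D2:**
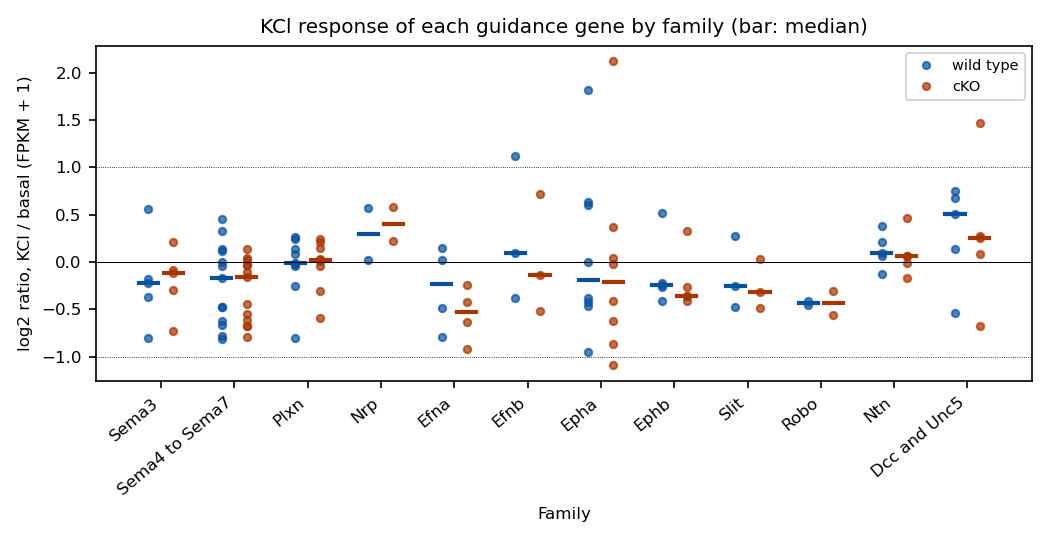
Log2 ratio of KCl to basal (FPKM + 1) for each guidance gene by family in wild type (blue) and the cKO (brown), 1 point per gene, bars the family median, dotted lines 2-fold. The EphA points span the widest range, from −0.95 to 1.81 in wild type, and the plexin points lie closest together among the families of 8 or more except for Plxna2.

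Markers of other cells also differed between KCl and basal libraries, and their part in the values above was not tested. Of the 14 interneuron markers 9 were at least 2-fold lower with KCl in each genotype, and their summed level was 215, 86.6, 195 and 77.3 FPKM. The 15 excitatory markers summed to 742, 673, 655 and 471 FPKM. The 13 astrocyte and radial glia markers summed to 1857, 2824, 2110 and 2966 FPKM, with 1 of 13 (Vim) at least 2-fold higher in each genotype. The 17 progenitor and cell cycle markers, of which Eomes was below 1 FPKM in every library, summed to 152, 237, 180 and 265 FPKM, and all 16 kept were above 0 in both responses. The 12 vascular and fibroblast markers, 7 of them kept, summed to 21.9, 38.3, 64.3 and 140.0 FPKM, 1.75-fold and 2.18-fold higher with KCl. Those not kept, below 1 FPKM in every library, were Pecam1, Cldn5, Kdr, Cdh5 and Lum. Of the 7 kept, 1 was at least 2-fold higher in wild type and 4 in the cKO, in the same KCl libraries in which Efnb2 and Unc5b were higher.

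Subtracting the KCl responses (cKO log2 ratio minus wild-type log2 ratio) gives a difference between the genotypes. The series title asks what the loss of Brg1 does to the activity response. With 1 library per group, and genotype not separable from sex, the difference cannot be assigned to that loss. The difference was −0.5 or below for 4 members, Sema4c, Epha3, Epha6 and Efnb1 (4.03% of all kept genes), and 0.5 or above for Unc5b (2.82% of all). The 4 are 6.15% of the 65 members. The median was −0.05, against 0.02 for all kept genes, and 39 of 65 members lay below 0 (60.0%, against 45.5% of all).

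Sema4c, a membrane-bound semaphorin that signals through Plxnb2, had the most negative difference, at −0.94. It was at 20.3, 25.7, 22.2 and 14.1 FPKM, so that the cKO KCl library was the lowest of the 4 and the wild-type KCl library the highest. It was 1.27-fold higher with KCl in wild type (counting interval 1.19 to 1.35) and 1.57-fold lower in the cKO (1.46 to 1.69). For Epha6, at 4.49, 7.37, 7.51 and 7.36 FPKM, the wild-type basal library stood alone below the other 3, and the difference of −0.63 came from the basal libraries. For Efnb1 (−0.62) it came from the cKO KCl library, and for Epha3 (−0.63) from both conditions, since cKO was 1.33-fold higher at basal KCl (1.25 to 1.41) and 1.20-fold lower after KCl (1.11 to 1.3). For Unc5b (0.72) the basal libraries lay close together and the cKO was 2.03-fold higher after KCl (1.80 to 2.29).

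By family, the median difference of the 7 ephrins was −0.38, with 6 of 7 below 0 and Efnb3 the exception at 0.24. The plexins had a median of 0.01 and all 9 lay within 0.5 of 0, as did 93.1% of all kept genes. The semaphorin median was 0.01 as well, with 11 of 18 above 0, so Sema4c stood apart from its family. For excitatory neuron markers the median was −0.28 (11 of 15 below 0), and for the 7 vascular and fibroblast markers kept it was 0.21 (all above 0). Their part in the differences of these guidance genes was not tested.

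**Figure D3:**
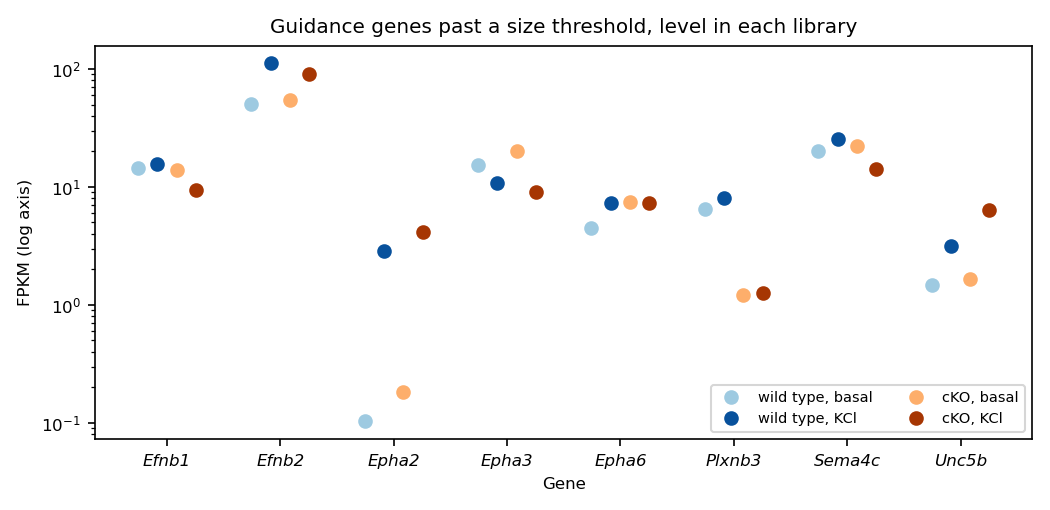
FPKM (log axis) in each of the 4 libraries, 1 point per library, for the 8 guidance genes past 2-fold in a comparison or past 0.5 in the difference of KCl responses. For Sema4c, Efnb1 and Epha3 the cKO KCl library (dark brown) is the lowest, and for Plxnb3 both cKO libraries are below both wild-type libraries.

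Comparing the genotypes in basal cultures asks which guidance genes differ before depolarization. Of the 65 members only Plxnb3 was past 2-fold, and it was lower (0.551% of all kept genes were). None was at least 2-fold higher, where 0.936% of all were. In all 61 members lay within 0.5 of 0 (93.8%, against 92.9% of all kept genes), with a median of −0.00, against 0.01. After KCl, Plxnb3 was again the only member past 2-fold and lower (0.944% of all), and none was higher (1.87% of all), but fewer members lay near 0: 49 were within 0.5 (75.4%, against 88.3% of all). The genotype difference had the same sign in both conditions for 50 of 65 members (76.9%, against 63.1% of all), and these comparisons share no library. With rescaling to presynaptic genes the median of all genes moved to 0.21 in both, and Unc5b was then past 2-fold after KCl. The share of higher genes among all past 2-fold was 62.9% (basal) and 66.5% (KCl) as deposited and 80.0% and 81.2% with that scaling.

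Plxnb3, a plexin known for its expression in oligodendrocytes, stood at 6.5 FPKM (basal) and 8.0 (KCl) in wild type and at 1.22 and 1.26 in the cKO. Both cKO libraries were below both wild-type libraries. In the cKO basal library it was lower by a factor of 5.30 (counting interval 4.48 to 6.31), and in the cKO KCl library by one of 6.32 (5.39 to 7.44). It was past 2-fold with 0.1 added in place of 1 and with each of the 3 rescalings, the alternatives that can change its ratio. Its exons overlap no other gene in GENCODE M21. The remaining B-class plexins did not share the difference: Plxnb1 was at 21.2, 23.4, 21.5 and 24.9 FPKM and Plxnb2 at 29.2, 34.6, 37.0 and 44.1. The X-linked members Plxna3, given above, and Efnb1 were also within 2-fold.

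The summed level of oligodendrocyte lineage markers was also lower in the cKO, and their part in the Plxnb3 difference was not tested. The sum was 548 and 629 FPKM in wild type (basal, KCl) and 395 and 355 in the cKO, none was at 0, and 3 of 9 were at least 2-fold lower in each condition. The 3 were genes of myelin: Mbp stood at 121, 161, 11.6 and 12.9 FPKM, Mag at 7.29, 10.2, 0.355 and 0.512, and Cnp at 80.0, 76.7, 28.9 and 25.4. Mog, another gene of myelin, was within 2-fold, and its points interleaved between the genotypes. Sox10 was also within 2-fold, with both cKO libraries below both wild-type ones. Of the genes expressed from the progenitor stage, Olig1 was at 192, 217, 225 and 195 FPKM, Olig2 at 69.5, 73.7, 62.7 and 61.4 and Pdgfra at 30.3, 38.8, 29.0 and 25.8, which were within 2-fold. Cspg4, another progenitor gene, went the other way, at 6.59, 5.27, 9.34 and 10.1 FPKM.

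**Figure D4:**
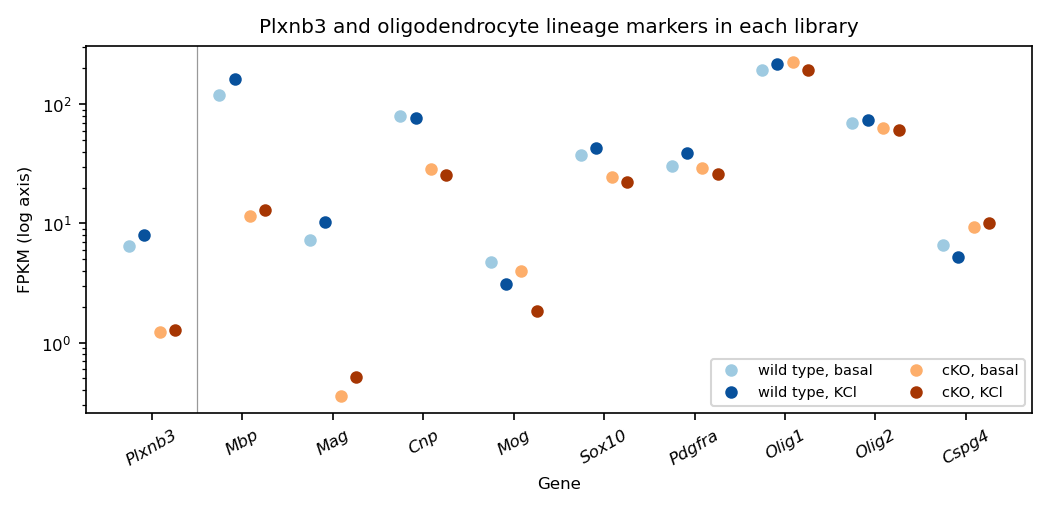
FPKM (log axis) in each of the 4 libraries, 1 point per library, for Plxnb3 (left of the line) and 9 oligodendrocyte lineage markers. Plxnb3, Mbp, Mag, Cnp, Sox10, Olig2 and Pdgfra have both cKO libraries below both wild-type libraries, by the least for Olig2 and Pdgfra, while the points of Olig1 and Mog interleave and Cspg4 is higher in the cKO.

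Neuropilins, the binding receptors of class 3 semaphorins that are also found on vessels and myeloid cells, were both higher in the cKO. Nrp2 was at 5.28, 8.30, 9.63 and 14.9 FPKM, with the cKO 1.82-fold above wild type in basal cultures (counting interval 1.67 to 2.0) and 1.80-fold above it with KCl (1.68 to 1.93). Nrp1 was at 8.53, 8.69, 11.2 and 13.2 FPKM, 1.31-fold higher (1.19 to 1.46) and 1.52-fold higher (1.38 to 1.67). For both genes both cKO libraries were above both wild-type ones. Sema4d, a plexin-B ligand of oligodendrocytes and immune cells, was at 13.6, 9.50, 16.1 and 15.7 FPKM. The summed vascular and fibroblast markers given above were highest in the cKO libraries, and the 12 microglial markers summed to 239, 283, 479.7 and 620.5 FPKM. Among the first list 5 of 7 markers kept were at least 2-fold higher after KCl in the cKO than in wild type, and the endothelial marker Cldn5 was at 0 in every library and Cdh5, also endothelial, was below 1 FPKM throughout. Among the second 9 of 12 were. Their part in the neuropilin, Sema4d and Unc5b values was not tested.

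After KCl, 11 members were lower in the cKO by 0.5 or more on the log2 scale, 7 of them ligands, and 5 were higher. The lower ones are 16.9% of members, against 4.73% of all kept genes, and the higher ones 7.69%, against 6.92% of all. These counts were not recomputed with the rescalings. With the presynaptic one the median of all genes moved from 0.03 to 0.21, and that of members from −0.03 to 0.13. Members near the cut may therefore not stay past it. Sema5a, a semaphorin with thrombospondin repeats, was at 5.10, 3.39, 3.41 and 1.75 FPKM, below wild type by a factor of 1.5 in basal cultures (counting interval 1.36 to 1.64) and 1.94 with KCl (1.72 to 2.18). Ntn1, the founding netrin, was at 3.42, 4.76, 2.29 and 2.44 FPKM, below wild type by factors of 1.49 (1.28 to 1.74) and 1.95 (1.70 to 2.24). Both had each cKO library below the wild-type library of the same condition. Sema6a, at 15.9, 22.1, 13.6 and 14.0 FPKM, was 1.58-fold lower after KCl (1.5 to 1.67), and Sema4c and Efnb1 have been given above. Among receptors, Epha8 was at 2.11, 1.39, 1.15 and 0.617 FPKM, 2.25-fold lower after KCl by its deposited values (1.67 to 3.05) although under 2-fold once 1 was added.

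**Figure D5:**
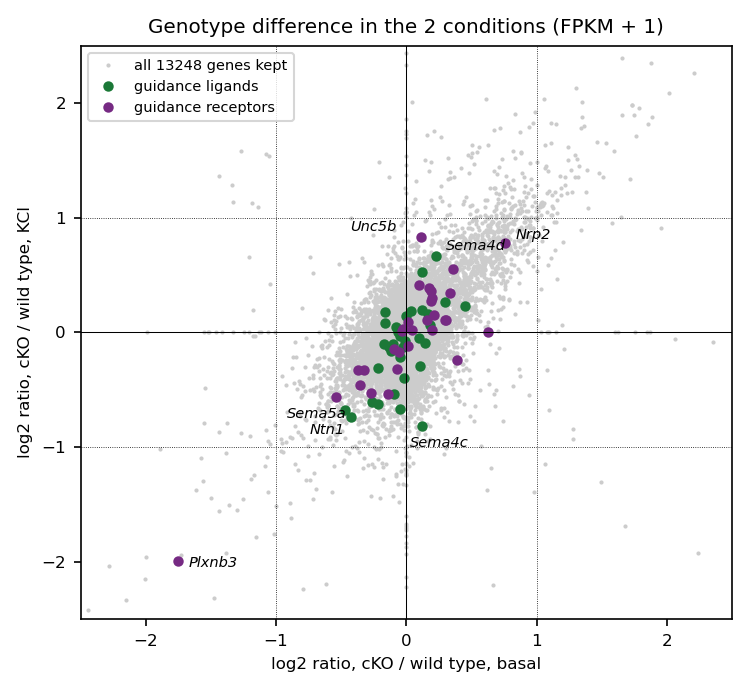
Log2 ratio of cKO to wild type (FPKM + 1) at basal KCl (x axis) against the same after KCl (y axis) for each guidance ligand (green) and receptor (purple), over all 13248 genes kept (grey, those beyond 2.5 in size not drawn). Dotted lines mark 2-fold. Plxnb3 lies at −1.75 and −1.99, and no other guidance gene passes a dotted line.

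Other genes of the pathway were taken from 2 lists. Of 37 further cues, receptors and coreceptors 36 were in the table and kept, and 1 was past 2-fold with KCl in each genotype. This was Rtn4r, the Nogo receptor, lower at 21.4, 6.83, 19.1 and 5.71 FPKM. It is 2.78% of the 36, where 3.31% (wild type) and 3.09% (cKO) of all kept genes were lower. Their median log2 KCl ratios were −0.02 (wild type) and −0.10 (cKO). Between genotypes 0 of 36 were past 2-fold, with a median of −0.18 after KCl. Of all kept genes 0.936% were higher and 0.551% lower in basal cultures, and 1.87% and 0.944% after KCl. Of 52 cytoplasmic effectors of guidance receptors, all kept, 2 passed 2-fold in wild type, both higher with KCl, and 2 in the cKO, both lower. Each pair is 3.85% of the list, where 5.07% of all kept genes were higher in wild type and 3.09% lower in the cKO. The higher ones were Rnd3, an atypical small GTPase that lowers actomyosin contraction (14.0, 29.3, 16.2 and 27.3 FPKM), and Vav3, a Rac exchange factor (1.55, 4.42, 2.12 and 5.05). The lower ones were Rnd1, a plexin-binding small GTPase (24.1, 12.3, 19.6 and 9.17), and Sh2d3c, an Eph receptor adaptor (10.3, 5.81, 10.2 and 3.83). For each of these 4 genes both KCl libraries lay on the same side of both basal libraries. Vav3 was just short of 2-fold in the cKO (log2 ratio 0.96) and Rnd1 in wild type (−0.91). No effector was at least 2-fold lower in wild type (3.31% of all) or higher in the cKO (4.41% of all). The effector medians were 0.14 (wild type) and 0.12 (cKO). The difference of responses lay within 0.5 of 0 for all 52, and for 93.1% of all kept genes. Between genotypes 0 of 52 were past 2-fold, against the all-gene shares given for the first list.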

How the data were processed

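RNA-seq values of 4 libraries, 1 per group, were used. The authors deposited 1 table of gene values, read here as FPKM because the values are not whole, sum to about 302041 to 330621 and lie on small steps that differ by gene. TopHat 1.3.2 and the mm9 build are listed in the submitters' processing notes. The program and annotation behind the gene values were not named in the sources used here, nor any filter. Whether strand was used in counting is not stated.

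Genes that reached 1 FPKM in any library were kept. Log2 ratios were taken after adding 1, and genes counted at 2-fold, or at 0.5 for the difference in response. The 0.5 size was also used to count genotype differences after KCl. Single-gene folds are ratios of deposited values, with exact binomial 95% intervals on fragments approximated from transcript lengths (longest in GENCODE M21) and the smallest value steps. With 1 library per group no test was possible, and the procedure was tested on simulated data.

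The members and gene lists were chosen with earlier results of these data known. All 4 values were given for members past those sizes (8) and for the highest of each of 12 families, and pathway genes were named past 2-fold. Other members were named after their values were seen. 1 marker of the oligodendrocyte lineage list is not reported here and was left out of its sums and counts. Alternatives were another pseudocount, other filters and 3 rescalings. Python 3.11.15, NumPy 2.4.6, pandas 2.3.3, SciPy 1.17.1 and matplotlib 3.10.9 were used.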

Additional observations from a re-analysis of the deposited data

Results flagged for a closer look

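Sema4c had KCl responses of opposite sign in the genotypes, with log2 ratios of 0.33 (wild type) and −0.62 (cKO) that differ by −0.94. It was the only guidance gene or named pathway gene with both sides at 0.25 or more in size, either for the KCl response or for the genotype difference, and the difference was not tested.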

How the results depend on the processing

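No paired analysis was possible because each group has 1 library, and no library could be left out. Of 70 counts recomputed, 60 stayed within 1.5 times the count reported. Some of the 60 could not have moved. Unc50 passed no threshold, so leaving it out could not change a count. A gene under 1 FPKM in every library cannot pass 2-fold once 1 is added, so the 2-fold counts without a filter were fixed. With 0.1 added in place of 1, 1 member was lower with KCl in wild type (Epha7), 2 in the cKO (Efna4 and Epha3) and 2 in the cKO against wild type after KCl (Epha8 and Plxnb3). With genes kept at 5 FPKM, which leaves 53 members and removes Epha2, 1 member was higher with KCl in wild type and 1 in the cKO. With rescaling to ribosomal protein genes 1 was higher with KCl in wild type (2.87% of all genes were), 8 were lower there (10.1% of all) and 13 were lower in the cKO (10.2% of all). With rescaling to presynaptic genes 0 were lower with KCl in the cKO, and 1 (Unc5b) was higher in the cKO after KCl. Of the single values recomputed for the named members, 448 stayed within their counting interval, 117 moved beyond it and none past its size threshold changed sign. Other filters cannot change the value of a single gene, so the values recomputed with them were bound to stay. Leaving out Unc50, an alternative added after seeing the data, changed none of the counts past 2-fold or 0.5, and lowered the members below 0 in the difference of responses from 39 to 38.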
